A study of Mus musculus with 9 samples.

Results

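Endothelial cells line blood and lymphatic vessels, and the lung holds a dense capillary bed of them around its air spaces. They are recognised by von Willebrand factor, by junction proteins such as PECAM-1 and VE-cadherin, and by receptors for angiopoietins and vascular endothelial growth factors (VEGFs) that govern vessel growth and leakage. Transcription factors of the ETS and SOX families drive many of these genes. The 10 endothelial genes described here were chosen by their symbols (Vwf, Tie1, Tek, Pecam1, Cdh5, Kdr, Flt1, Sox17, Eng and Ramp2). Each was found once, among 45535 rows of the deposited table that carry a gene symbol.

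The RNA came from a preparation of CD103+ dendritic cells of the lung, so these genes mark a cell type that the isolation did not aim for. Which cells their transcripts came from was not tested. All samples were from mice of the strain given as C57/BL6j that had received bleomycin, an agent that injures the lung and leads to fibrosis, for 7 days. Lungs were digested with collagenase, and the cells were taken with magnetic beads. The 5 samples before culture were lysed directly, and the 4 samples after culture had spent 18 h in RPMI medium with serum and antibiotics. Total RNA was sequenced. The extraction label speaks of lung RNA although the cell type label gives CD103+ DCs, and the labels do not say whether the samples were separate mice or pools. No uninjured lung and no sorted endothelial cells are used here.

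The samples held 14.7 to 35.3 M reads in named rows. Itgae, which encodes CD103, stood at 18138 ± 1537 normalized counts before culture (SD, n = 5) and at 1727 ± 335 after it (SD, n = 4). Xcr1, a receptor of type 1 conventional dendritic cells, stood at 5836 ± 781 and 114 ± 32.5 (SD). These 2 markers were therefore present in both groups at very different levels. Of the 12 listed markers of that cell type, 9 fell and 3 (Batf3, Zbtb46 and Flt3) rose. Each endothelial result below is a comparison of the 2 whole preparations, before and after culture. A normalized count is the number of reads divided by 1 factor per sample, here with 1 read worth 0.758 to 1.79.

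All 10 endothelial genes were read in all 9 samples, with at least 13 reads each, and all fell during culture. In limma with Benjamini-Hochberg adjustment over 18202 genes, 10 of 10 were lower after culture and 0 were higher (34.2% of all tested genes were), with adjusted p from 6.28e-11 to 1.03e-06. The background for this is high, since 34.6% of all tested genes were called lower and 68.8% were called in either direction. The size stood further from the background than the calls did. The median log2 fold change of the 10 genes was -3.30, against 0.01 over all tested genes. A log2 fold change of -2 or less was reached by 7 of the 10 genes and by 8.19% of all genes, -3 or less by 5 and by 3.54%, and -4 or less by 3 and by 1.31%. For all 10 genes the lowest sample before culture was above the highest after it, which held for 28.6% of all tested genes. In bulk RNA, fewer cells of a type and less RNA per cell cannot be told apart, so these values are levels of the preparation. The p-values measure only the spread between these samples.

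**Figure D1:**
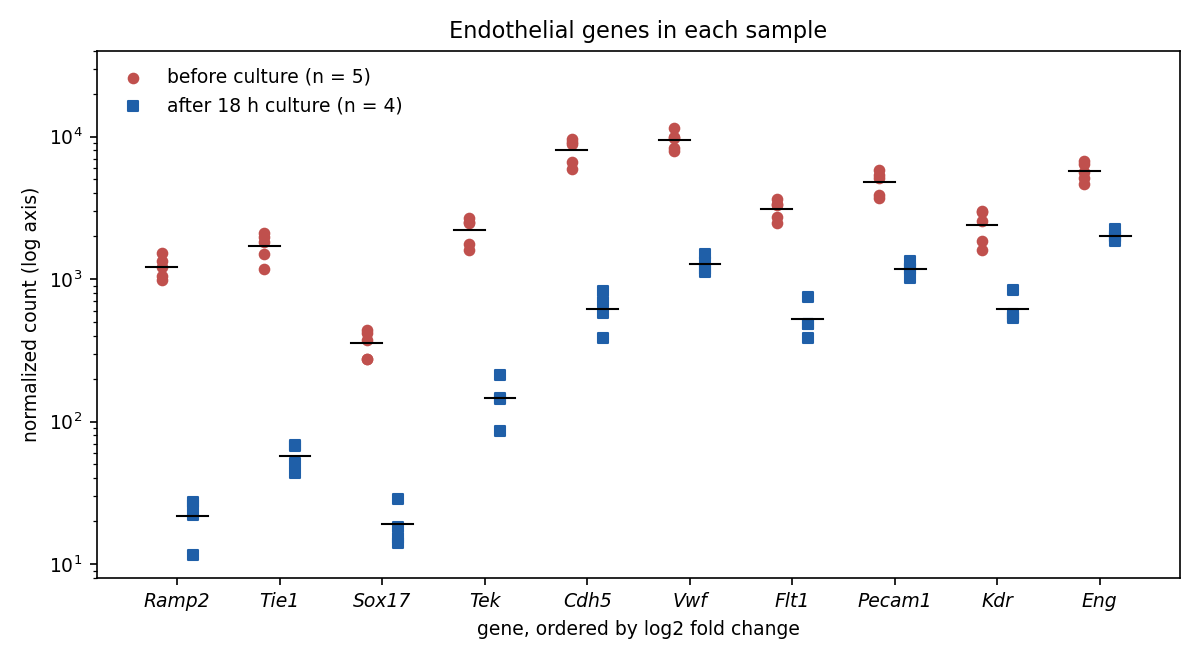
Normalized count on a log axis of the 10 endothelial genes, ordered by log2 fold change, in the 5 samples before culture (red circles) and the 4 after 18 h of culture (blue squares), with a black line at each group mean. In every gene the 2 groups are separate, and the gap narrows from Ramp2 on the left (1220 against 21.7) to Eng on the right (5690 against 2011).

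Together the 10 genes took 0.151 ± 0.0244% of the named reads before culture (SD, n = 5, range 0.117 to 0.170%). After culture they took 0.0256 ± 0.00268% (SD, n = 4, range 0.0231 to 0.0291%). These reads were a small part of the RNA in both groups, and after culture they still numbered 6476 to 9263 per sample.

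Promoter sequence, from RefSeq on GRCm38.p6, was at hand for 5 of the 10 genes (Tie1, Tek, Kdr, Flt1 and Eng) and not for Vwf, Ramp2, Pecam1, Cdh5 and Sox17. The 250 bases before the start of 3 receptor genes are shown because these genes fell together although by different sizes, and because ETS factors, which are active in endothelium, bind a GGAA core. Capitals mark each GGAA, or TTCC for the other strand. The windows are chr5:147726012-147726261 (minus strand) for Flt1, chr4:94739039-94739288 (plus strand) for Tek and chr2:32646345-32646594 (plus strand) for Eng.
Flt1: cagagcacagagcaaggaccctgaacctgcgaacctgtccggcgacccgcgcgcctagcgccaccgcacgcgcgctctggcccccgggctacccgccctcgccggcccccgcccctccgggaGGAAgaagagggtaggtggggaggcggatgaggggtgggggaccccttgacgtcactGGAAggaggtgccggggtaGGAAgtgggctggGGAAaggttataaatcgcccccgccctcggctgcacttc
Tek: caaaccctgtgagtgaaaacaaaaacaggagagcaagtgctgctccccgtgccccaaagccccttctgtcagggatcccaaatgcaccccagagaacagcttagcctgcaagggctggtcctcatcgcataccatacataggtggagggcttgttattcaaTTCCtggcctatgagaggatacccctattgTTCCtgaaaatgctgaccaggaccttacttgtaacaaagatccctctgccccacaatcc
Eng: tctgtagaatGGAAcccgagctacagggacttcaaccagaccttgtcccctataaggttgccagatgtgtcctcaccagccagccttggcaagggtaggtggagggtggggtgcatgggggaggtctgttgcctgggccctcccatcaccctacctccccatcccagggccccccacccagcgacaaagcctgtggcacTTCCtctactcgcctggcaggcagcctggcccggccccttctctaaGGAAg
Flt1 holds 4 matches, Tek 2 and Eng 3. Among 32851 promoters of the same length, 93.4% hold at least 1 match on either strand, the median is 3 and 33.4% hold 4 or more. Tie1 holds 7 and Kdr 4 in windows that overlap an annotated exon of the same gene. A match is a run of letters and not a bound site.

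Vwf encodes the multimeric glycoprotein that tethers platelets to an injured vessel wall, and it is stored in the Weibel-Palade bodies of endothelial cells. The gene lies at chr6:125546774-125686679 on the plus strand (GRCm38, as are all gene positions here, from GENCODE M21). It read 9994, 9689, 11458, 7865 and 8334 normalized counts before culture and 1183, 1328, 1112 and 1505 after. The groups were far apart beside the spread of the samples within each. Its mean fell from 9468 ± 1427 (SD, n = 5) to 1282 ± 174 (SD, n = 4), which left 13.5% of the level before culture. The log2 fold change was -2.88 (SE 0.116, limma adjusted p = 1.49e-10).

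Tie1 and Tek are the 2 receptors of the TIE family. Tek encodes TIE2, which binds the angiopoietins and keeps resting vessels stable, and TIE1 is its partner without a well-defined ligand of its own. Tie1 (chr4:118471191-118490061, minus strand) read 1490, 2107, 1963, 1810 and 1185 before culture and 43.3, 68.2, 67.3 and 50.9 after. Tek (chr4:94739289-94874976, plus strand) read 1763, 2476, 2703, 2500 and 1593 before and 85.7, 144, 213 and 145 after. In both genes, replicates 1 and 5 were the lowest before culture and replicate 1 was the lowest after it. Tie1 fell from 1711 ± 373 to 57.4 ± 12.3 (SD), a 29.8-fold drop with a log2 fold change of -4.87 (SE 0.179). Tek fell from 2207 ± 494 to 147 ± 52.0 (SD), which left 6.66%, with a log2 fold change of -3.94 (SE 0.224).

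Kdr and Flt1 encode the VEGF receptors 2 and 1. VEGFR2 carries most of the growth signal of VEGF-A, and VEGFR1 binds VEGF-A tightly, also acts as a decoy, and is made by monocytes and macrophages too. Kdr (chr5:75932827-75978458, minus strand) read 1851, 2966, 2575, 3017 and 1604 before culture and 530, 840, 540 and 566 after. Flt1 (chr5:147561604-147726011, minus strand) read 2709, 3623, 3368, 3325 and 2458 before and 486, 484, 752 and 388 after. After culture the highest sample was replicate 2 for Kdr and replicate 3 for Flt1, so the 2 receptors did not share their order there. Kdr fell from 2402 ± 645 to 619 ± 148 (SD, log2 fold change -1.94, SE 0.193). Flt1 fell from 3097 ± 490 to 527 ± 156 (SD, log2 fold change -2.58, SE 0.166).

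Eng and Ramp2 encode partners of other receptors. Endoglin is an accessory receptor for BMP9 and TGF-beta, found on endothelium and on some activated macrophages. RAMP2 joins the receptor CALCRL and makes it respond to adrenomedullin, a peptide that tightens the vessel barrier. Eng (chr2:32646595-32682669, plus strand) read 5102, 6698, 6375, 5620 and 4656 before culture and 1961, 2237, 1999 and 1848 after. Ramp2 (chr11:101246028-101259546, plus strand) read 985.5, 1209, 1336, 1512 and 1056 before and 11.5, 25.8, 27.3 and 22.0 after. These were the smallest and the largest change among the 10 genes. Eng fell from 5690 ± 852 to 2011 ± 164 (SD), which left 35.3% of its level (log2 fold change -1.49, SE 0.105). Ramp2 fell from 1220 ± 213 to 21.7 ± 7.13 (SD), which left 1.77% (log2 fold change -5.80, SE 0.219).

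Reads of Ramp2 could be split with a neighbour. Of the 50-base windows of its longest annotated transcript, 73.8% also occur in transcripts of Vps25, a gene on the same strand that overlaps it. Vps25, which encodes a subunit of an endosomal sorting complex, read 70.9 ± 10.5 before culture and 70.2 ± 14.1 after (SD, limma adjusted p = 0.931). How the authors assigned shared reads is not given in the sources used here.

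Pecam1 and Cdh5 encode adhesion molecules of the endothelial junction. VE-cadherin, the product of Cdh5, is the cadherin of the adherens junction and is made almost solely by endothelium. PECAM-1, or CD31, is also carried by platelets, monocytes, neutrophils and other leukocytes. Cdh5 (chr8:104101625-104144511, plus strand) read 6618, 9598, 8914, 9098 and 5903 before culture and 387, 689, 818 and 576 after. Pecam1 (chr11:106654217-106750628, minus strand) read 3898, 5350, 5111, 5817 and 3716 before and 1019, 1177, 1346 and 1200 after. Cdh5 was above Pecam1 in all 5 samples before culture and below it in all 4 after. Cdh5 fell from 8026 ± 1650 to 617 ± 183 (SD), a 13.0-fold drop (log2 fold change -3.72, SE 0.197). Pecam1 fell from 4778 ± 925 to 1186 ± 134 (SD), a 4.03-fold drop (log2 fold change -1.99, SE 0.132).

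Sox17, a SOXF transcription factor needed for arterial identity, is the 1 nuclear factor among the 10. The gene (chr1:4490931-4497354, minus strand) read 275.2, 438.1, 417.3, 375.8 and 275.7 before culture and 14.1, 28.8, 18.2 and 15.2 after. It was the least abundant of the 10 before culture. Its mean fell from 356 ± 77.3 to 19.1 ± 6.71 (SD), an 18.7-fold drop with a log2 fold change of -4.18 (SE 0.224). An antisense gene, Gm37587, covers 23.6% of its windows and stood at 7.16 ± 4.00 before and 1.14 ± 2.27 after (SD).

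Levels of different genes were compared per kb of the longest annotated transcript. On this scale Cdh5 was the highest before culture at 2009 ± 413 normalized counts per kb (SD, n = 5). Eng followed at 1663 ± 249, Pecam1 at 1389 ± 269, Vwf at 1072 ± 161 and Ramp2 at 825 ± 144. Tek (474 ± 106), Flt1 (449 ± 71.1), Kdr (406 ± 109) and Tie1 (404 ± 88.1) lay close together, and Sox17 was lowest at 110 ± 23.8. Neighbours in this order had separate ranges only between Ramp2 and Tek and between Tie1 and Sox17.

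The order after culture was a different one. Eng led at 588 ± 47.8 normalized counts per kb (SD, n = 4), then Pecam1 at 345 ± 38.8, and these were separate from each other and from the next gene. Cdh5 (155 ± 45.8), Vwf (145 ± 19.7), Kdr (104 ± 25.01) and Flt1 (76.5 ± 22.7) followed with overlapping neighbours. Below a second gap stood Tek (31.6 ± 11.2), Ramp2 (14.6 ± 4.82) and Tie1 (13.6 ± 2.92), and Sox17 was separate at 5.89 ± 2.07. Ramp2 moved from rank 5 to rank 8. Its level per kb is uncertain in both groups, since how reads shared with Vps25 were assigned is not given. The order depends on the transcript length used, since with the median annotated length Vwf ranked 1 before culture and 2 after it.

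Most of the genes shared an order of samples before culture, and fewer did after it. Before culture, replicates 1 and 5 were the 2 lowest samples for 9 of the 10 genes, the exception being Vwf, and this order was found in 12.3% of all tested genes. Vwf was lowest in replicates 4 and 5 instead. After culture, replicate 1 was the lowest for 7 of the 10 genes, the exceptions being Vwf, Flt1 and Eng, against 20.1% of all genes. These orders were noticed in the values and so are descriptions.

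The spread between samples before culture was wider than the median of all genes for each of the 10. The coefficient of variation before culture ran from 14.98 to 26.9% over the 10 genes, and its median over all genes with a mean of at least 100 was 9.79%. After culture it ran from 8.14% (Eng) to 35.4% (Tek), against a median of 10.9%, with Pecam1 close to that median at 11.3%. The order of replicates 1 and 5 also appeared in 18 of 25 other pan-endothelial genes and in 10 of 16 endothelial transcription factors. Other endothelial lists held it less evenly, from 1 of 6 venous genes, 2 of 7 Weibel-Palade genes, 3 of 6 general capillary genes and 5 of 12 angiopoietin and VEGF partners to 5 of 7 aerocyte, 5 of 8 arterial and 4 of 6 lymphatic genes. It appeared in 4 of 10 fibroblast markers and 5 of 12 epithelial markers, and in 0 of 12 markers of type 1 conventional dendritic cells, 0 of 12 of monocytes and macrophages and 0 of 8 of neutrophils.

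**Figure D2:**
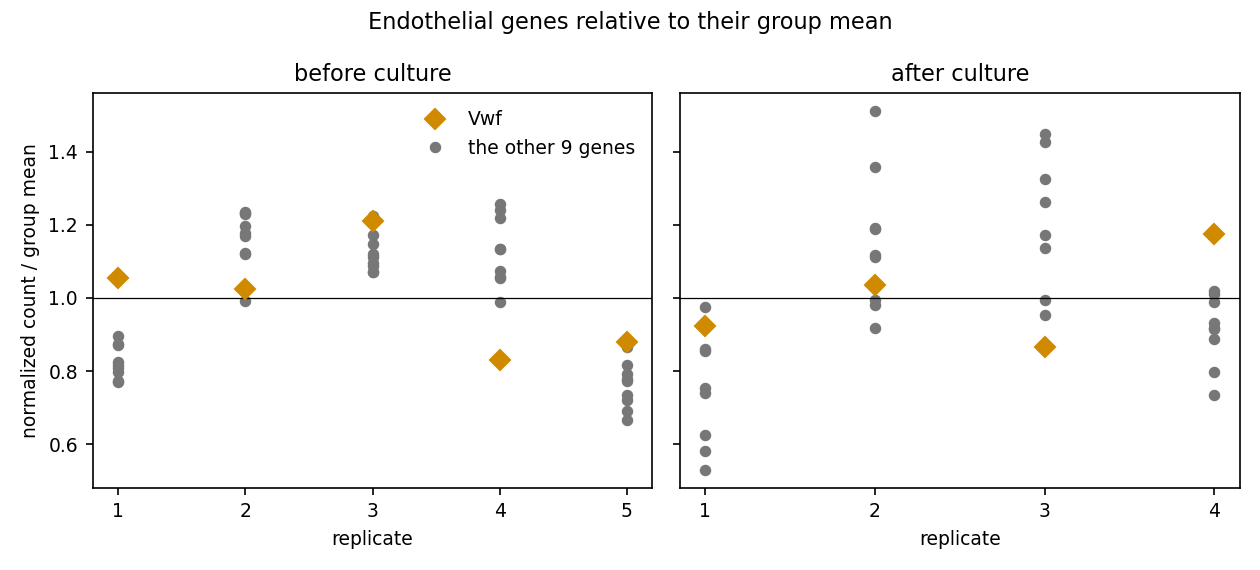
Normalized count of each of the 10 genes divided by its own group mean, by replicate, before (left) and after culture (right), with Vwf as orange diamonds and the other 9 genes as grey circles. Replicates 1 and 5 sit below 1 for all 9 grey genes before culture, whereas Vwf is lowest in replicate 4, and after culture the genes spread further apart.

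Because the genes fell by different sizes, 4 pairs of related genes were compared as log2 ratios within each sample. Such a ratio does not depend on the scaling between samples. An exact two-sided permutation test over all splits into 5 and 4 was used, whose smallest possible p is 0.0159, with adjustment over the 4 pairs.

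The ratio of Pecam1 to Cdh5 was -0.76, -0.84, -0.80, -0.65 and -0.67 before culture and 1.40, 0.77, 0.72 and 1.06 after. Thus VE-cadherin transcripts fell further than PECAM-1 transcripts, and the 2 groups did not overlap. The difference was 1.73 on the log2 scale (exact permutation p = 0.0159, adjusted 0.0317). The ratio of Tie1 to Tek was -0.24, -0.23, -0.46, -0.47 and -0.43 before and -0.97, -1.07, -1.65 and -1.49 after. Tie1 therefore fell further than Tek, again with no overlap (difference -0.93, exact permutation p = 0.0159, adjusted 0.0317). Leaving out any 1 sample raises the smallest exact p, to 0.0286 or 0.0357. Both pairs stayed at this smallest p in every such run, so their adjusted p depended on the other pairs. Without replicate 3 after culture the other pairs reached the smallest p too, and the adjusted exact permutation p was 0.0357. The differences were then 1.82 and -0.81. Without any other single sample the adjusted permutation p was 0.0571 to 0.0714, with differences of 1.59 to 1.80 and -1.04 to -0.86. There the test could not pass the threshold unless another pair also reached the smallest p. Passing or not in these runs therefore cannot show whether a call rests on 1 sample.

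The other two pairs overlapped between groups and did not pass. The ratio of Vwf to Cdh5 moved from 0.25 ± 0.339 to 1.10 ± 0.516 (SD, difference 0.84, exact permutation p = 0.0476, adjusted 0.0635). That of Kdr to Flt1 moved from -0.40 ± 0.193 to 0.25 ± 0.556 (SD, difference 0.64, exact permutation p = 0.0635, adjusted 0.0635). In both, replicate 3 after culture lay nearest the samples before culture, at 0.44 and -0.48. Without it the differences were 1.06 and 0.88, each with an adjusted exact permutation p of 0.0357.

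**Figure D3:**
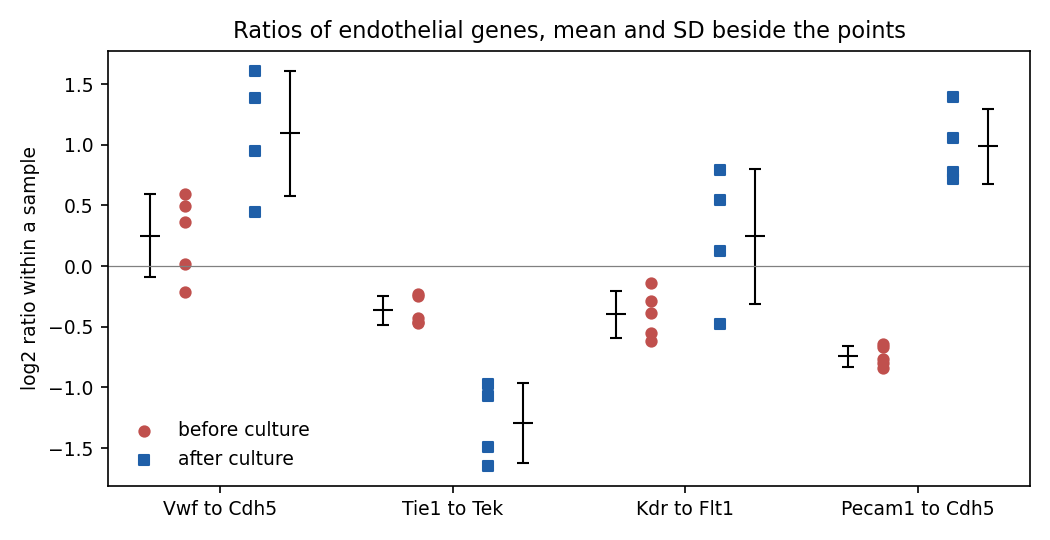
Log2 ratio of 2 endothelial genes within a sample for 4 pairs, before (red circles, n = 5) and after culture (blue squares, n = 4), with the group mean and SD in black beside the points. The groups are separate for Tie1 to Tek and for Pecam1 to Cdh5, which rises from -0.74 to 0.99, and overlap for the other two pairs.

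The ligands and partners of the angiopoietin and VEGF receptors did not all move with the receptors. Of 12 genes tested, 8 fell, 3 rose and 1 (Vegfc) did not pass (limma adjusted p = 0.347), and the median log2 fold change was -1.56. Beside this and each list count below, 34.6% of all tested genes were called lower and 34.2% higher. Ptprb, which encodes the endothelial phosphatase VE-PTP that restrains TIE2, fell 37.6-fold, from 9530 ± 1970 to 254 ± 73.3 (SD, log2 fold change -5.26, SE 0.200). Svep1, a matrix protein that binds TIE1, fell from 722 ± 114 to 87.8 ± 16.5 (SD). Vegfa itself, named after its values were seen, fell from 4122 ± 639 to 1447 ± 569 (SD).

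Angpt2, the angiopoietin that counters TIE2 signalling and is made by activated endothelium, rose 4.00-fold. It read 101, 108, 70.7, 104 and 69.8 before culture and 254, 432, 425 and 339 after, with no overlap. Nrp2, a semaphorin and VEGF co-receptor that dendritic cells also make, rose 6.13-fold, from 2404 ± 447 to 14727 ± 2499 (SD). Nrp1 passed by a narrow margin (log2 fold change 0.34, SE 0.135, limma adjusted p = 0.0372) with overlapping groups. Its call was lost on leaving out replicate 1 or 5 before culture, or replicate 1, 2 or 4 after it, where the log2 fold change was 0.26 to 0.32, and in a fit with the title replicate numbers as a block (0.27, limma adjusted p = 0.0721).

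Transcription factors of endothelium fell without exception among the 16 of 17 that could be tested (0 higher, median log2 fold change -2.81). Hey2 was too low to test. Epas1, the oxygen-regulated factor HIF-2 alpha, fell from 17264 ± 3093 to 1104 ± 101 (SD, log2 fold change -3.95, SE 0.122). The flow-responsive factors fell as well, Klf4 from 16113 ± 3741 to 822 ± 78.9 and Klf2 from 8176 ± 1013 to 1437 ± 146 (SD), and both are also early-response genes of many cell types. The other SOXF genes, named after their values were seen, fell as Sox17 did, Sox18 by 29.5-fold and Sox7 by 14.9-fold.

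Among 25 other pan-endothelial genes, 21 fell, 1 rose and 3 did not pass, with a median log2 fold change of -3.36. That is close to the median of the 10 genes. Plvap, which forms the diaphragms of endothelial fenestrae and caveolae, fell 60.6-fold, from 3392 ± 682 to 56.0 ± 17.0 (SD). Mcam (CD146) fell 21.6-fold, and Bcam, a laminin receptor, fell 16.7-fold. Procr, the endothelial protein C receptor, was the 1 gene that rose, from 698 ± 125 to 978 ± 140 (SD, log2 fold change 0.49, SE 0.136, limma adjusted p = 0.00564). The 3 that did not pass were S1pr1 (-0.08), Cav1 (0.23) and Cd93 (-0.01 on the log2 scale), genes that leukocytes or macrophages also make.

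Genes of adrenomedullin signalling divided around Ramp2. Calcrl, the receptor that RAMP2 joins, read 6352, 9355, 10298, 9619 and 5153 before culture and 748, 1052, 780 and 780 after. It fell 9.71-fold (log2 fold change -3.24, SE 0.186), again with replicates 1 and 5 lowest before culture. Ramp3, which can take the place of RAMP2 on the same receptor, read 1015, 867, 979, 874 and 1027 before and 9007, 8335, 8550 and 8658 after. It rose 9.07-fold (log2 fold change 3.18, SE 0.0735, limma adjusted p = 1.83e-12). Adm, the gene of adrenomedullin, rose from 59.8 ± 7.21 to 205 ± 28.5 (SD). Ramp1, the third of the family and named after its values were seen, fell from 600 ± 73.9 to 354 ± 26.1 (SD). Of 5 genes, 3 fell and 2 rose.

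Around endoglin, 9 of 13 genes of BMP and TGF-beta signalling fell, 2 rose and 2 did not pass, with a median log2 fold change of -0.48. Acvrl1, which encodes ALK1, the type I receptor that works with endoglin, fell from 6785 ± 685 to 754 ± 72.2 (SD, log2 fold change -3.17, SE 0.0913). Id1, a target of this pathway, fell from 757 ± 92.5 to 171 ± 27.6, and the inhibitor Smad7 fell from 4463 ± 350 to 1623 ± 177 (SD). The 2 that rose were Tgfbr1 (log2 fold change 0.28) and Id2 (0.77), a factor that dendritic cells need.

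Of 7 genes of the Weibel-Palade bodies and of inducible adhesion, 4 fell, 2 rose and 1 did not pass, with a median log2 fold change of -0.45. Selp, the P-selectin stored beside von Willebrand factor, fell from 412 ± 99.0 to 67.9 ± 17.4 (SD). Cd63, a membrane protein of the same granules and of lysosomes in most cells, rose from 2124 ± 416 to 11509 ± 1258 (SD). Adamts13, the protease that cuts von Willebrand factor, rose from 17.9 ± 6.82 to 32.7 ± 4.82 (SD) with overlapping groups.

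Most markers of endothelial subtypes fell as well. All 6 genes of general capillary cells fell, with a median log2 fold change of -4.87. Gpihbp1, which holds lipoprotein lipase on the capillary wall, read 491 to 757 before culture and 1.77, 2.27, 2.73 and 10.6 after, where 3 of 4 samples had 3 reads or fewer. Of 7 genes of aerocytes, the capillary cells specialised for gas exchange, 5 fell and 2 did not pass (median -3.66). These 2, with overlapping groups, were Ednrb (log2 fold change -0.12, limma adjusted p = 0.654) and Apln (-0.27, limma adjusted p = 0.557). Car4, a membrane carbonic anhydrase, fell 67.6-fold from 973 ± 237 to 14.4 ± 1.85, and Prx, or periaxin, fell 33.2-fold (SD).

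Of 8 arterial genes, 7 fell and 1 rose (median log2 fold change -2.66). Gja4, a connexin of arteries, fell from 466 ± 136 to 5.01 ± 2.83 (SD), with only 3 to 12 reads per sample after culture. The 1 that rose, Dkk2, a WNT inhibitor, stood at 13.2 ± 6.26 and 26.1 ± 8.14 (SD, limma adjusted p = 0.0322). Its call was lost on leaving out replicate 1 or 4 before culture or replicate 1, 3 or 4 after it, with log2 fold changes of 0.73 to 1.02. Of 6 venous genes, 4 fell and 2 did not pass (median -1.80), with Ephb4, the venous ephrin receptor, down from 1076 ± 166 to 95.5 ± 28.1 (SD). Those that did not pass were Ackr1 (log2 fold change -1.15, limma adjusted p = 0.0615) and Prss23 (-0.26, limma adjusted p = 0.246).

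Of 6 lymphatic genes that could be tested, 5 fell and 1 rose (median -2.40). Lyve1, the hyaluronan receptor of lymphatic vessels and of some macrophages, fell from 1571 ± 101 to 169 ± 57.4 (SD), and Flt4, or VEGFR3, fell from 593 ± 107 to 138 ± 23.4 (SD). Mmrn1, of lymphatic endothelium and platelets, stood at 50.2 ± 15.3 before culture and at 3 reads or fewer in each sample after it, at least 20.2-fold lower against a floor of 3 reads per sample. The 1 that rose was Pdpn, or podoplanin, from 1700 ± 355 to 3294 ± 1449 (SD), which epithelium, fibroblasts and macrophages also make.

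**Figure D4:**
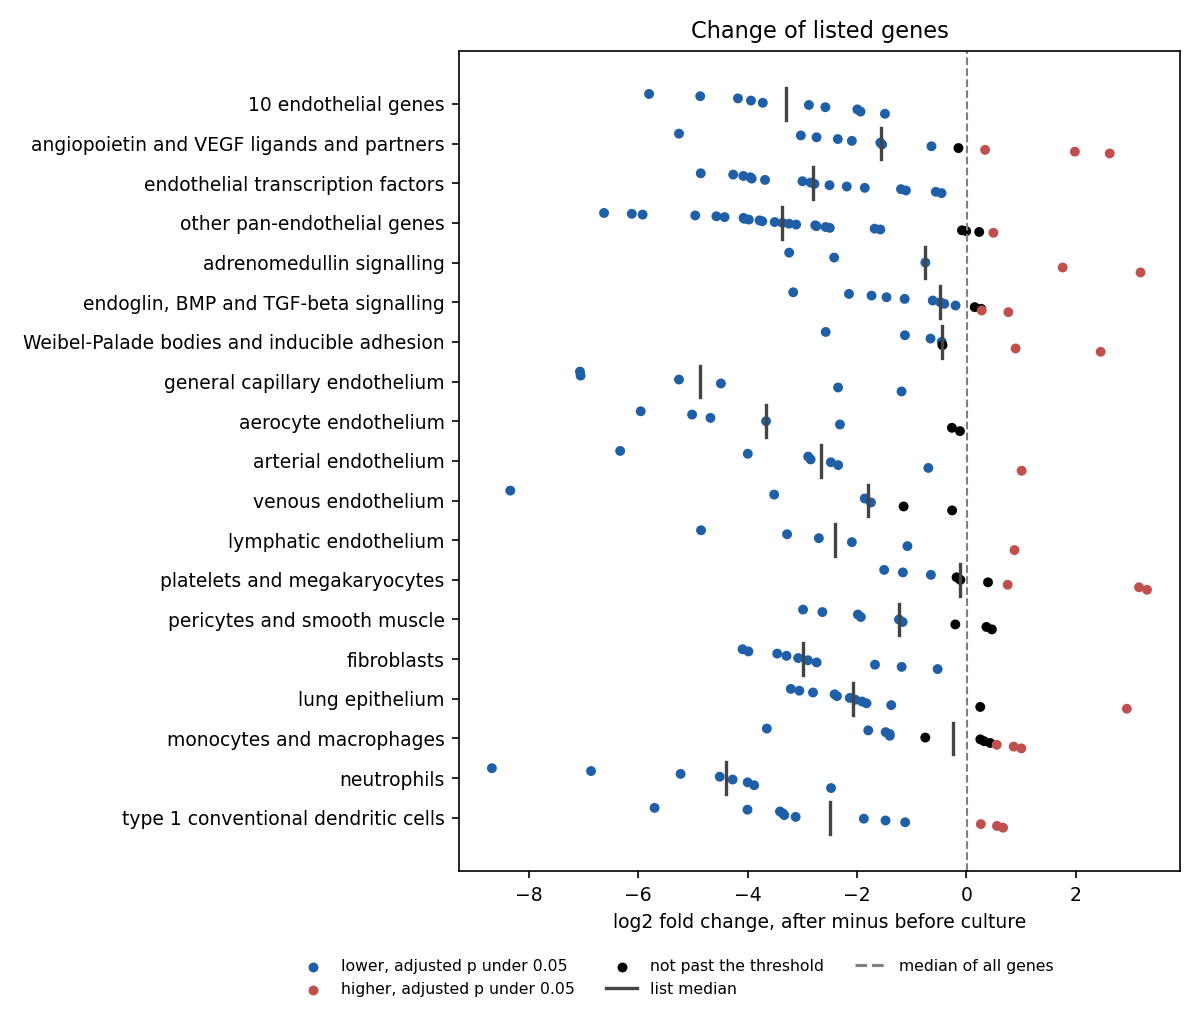
Log2 fold change (after minus before culture) of each tested gene in the 10 endothelial genes and 18 gene lists, in blue where lower and red where higher at an adjusted p under 0.05 and black where not passed, with a dark bar at each list median and a dashed line at the median of all genes (0.01). The 10 endothelial genes have a median of -3.30, the other pan-endothelial genes -3.36, neutrophil markers -4.39, fibroblast markers -2.99 and platelet markers -0.11.

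Markers of other cell types of the digested lung changed at the same time. All 10 fibroblast markers fell, with a median log2 fold change of -2.99 and a summed level of 16192 to 29244 before culture and 2269 to 4481 after. Of 12 markers of lung epithelium, 10 fell, 1 rose and 1 did not pass (median -2.08), with a sum of 27022 to 46368 before and 6427 to 11082 after. All 8 tested neutrophil markers fell (median -4.39), with a sum of 18754 to 29625 before and 1082 to 2145 after, and Ly6g was at 0 in all 4 samples after culture. Pericyte and smooth muscle markers fell in 6 of 9 and did not pass in 3 (median -1.23; 1 rose without replicate 2 or 3 before or replicate 2 after culture), with sums of 1360 to 2500 and 990 to 1446. Of 12 markers of type 1 conventional dendritic cells, 9 fell and 3 rose (median -2.50), with sums of 153802 to 181882 and 35983 to 39809.

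Monocytes, macrophages and platelets, like the neutrophils above, also make some of the 10 genes. Of 12 markers of monocytes and macrophages, 5 fell, 3 rose and 4 did not pass (median -0.25; without replicate 3 after culture 5 rose), with sums of 128717 to 194090 before culture and 166465 to 311192 after. Cd68 rose from 9503 ± 1626 to 17460 ± 4215, while Cd14 fell from 15958 ± 3711 to 1370 ± 673 (SD). Of 9 tested markers of platelets and megakaryocytes, 3 fell, 3 rose and 3 did not pass (median -0.11), with sums of 532 to 675 before and 1109 to 1779 after. Over all tested genes, 34.6% were called lower and 34.2% higher, so the counts of these lists lie near the background. The platelet chemokine genes Pf4 and Ppbp rose, Pf4 from 62.5 ± 30.6 to 579 ± 358 and Ppbp from 25.03 ± 9.69 to 244 ± 43.2 (SD). Clec1b was the third that rose, and the 3 that fell were Gp1ba, Gp9 and Itga2b. Gp9 went from 74.9 ± 21.8 to 31.3 ± 18.3 and Gp1ba from 58.7 ± 17.7 to 37.3 ± 11.6 (SD), both named after their values were seen. The platelet markers therefore did not move in 1 direction. The part of these other cells in the levels of Pecam1, Flt1, Eng, Vwf and the rest was not tested.

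The genes whose profile over the 9 samples was most like the mean profile of the 10 were sought by the smallest root mean square difference of centred log2 values. That mean profile stood at 1.13 to 1.71 before culture and at -2.20 to -1.65 after. The measure therefore mostly reflects how near the fold change of a gene lies to that of the mean profile. Whether such genes come from the same cells was not tested. Robo4, a roundabout receptor of endothelium and itself on the pan-endothelial list, was nearest at 0.137, having fallen from 849 ± 157 to 82.8 ± 22.8 (SD). Cdc42ep1 (0.153), Prex2 (0.156), Mfap4 (0.158), Slit3 (0.161) and Enpp2 (0.163) came next. Of the 10 genes themselves, Cdh5 lay nearest at 0.231, rank 25 of 11786 genes, although it had contributed to the mean. Ramp2, with the deepest fall, lay farthest at 1.24.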

How the data were processed

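Total RNA of CD103+ lung dendritic cell preparations was sequenced in 5 samples before and 4 after culture. The authors deposited a single table of normalized counts by gene (a non-negative signal), whose columns were assigned to samples through the library names in the labels. DESeq2 and the build GRCm38 are named in the submitters' processing notes, and the aligner, the counter, the annotation, strandedness and filters are not given in the sources used here. All values (100%, within 1e-06 reads) were whole multiples of 1 read, so whole reads were recovered for depth and for the count models.

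Of 49317 rows, the 3782 without a symbol (3.87 to 10.9% of reads) were left out. Named genes with a mean of at least 10 were tested on the log2 scale with a pseudocount of 1, using limma 3.58.1 under R 4.3.3 (mean-variance trend, group as the only term, two-sided), adjusted by the Benjamini-Hochberg method at a threshold of 0.05. Fold changes on this scale understate the change of low genes, and folds given as such are ratios of group means. Counting error at 14.7 to 35.3 M reads was small beside the spread between replicates for genes with many reads. It weighs more where reads are few, and most near the floor of 3 reads. After culture this concerns Ramp2 (13 to 34 reads), Sox17 (16 to 38) and Tie1 (49 to 90) among the 10 genes. Reads carry no molecular identifiers.

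The 10 genes, the 18 gene lists and the pairs were chosen with earlier results of these data known. Named genes are the 10, the 3 most strongly called of each list by adjusted p, those called against their list's direction, the 6 nearest profiles, and genes overlapping a member. Not every gene the rule allows is printed. Those added after their values were seen are marked, as are list genes that could not be tested or did not pass.

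Positions, lengths and shared 50-base windows came from GENCODE M21 (GRCm38), which may not be the authors' annotation. Alternatives were pseudocounts of 0.5 and 8, a minimum mean of 50 or no filter, scaling by TMM, upper quartile or quantiles, edgeR 4.0.16 and DESeq2 1.42.0 on recovered reads, replicate blocks and leaving out each sample. Counts were simulated at the depths and group sizes of this comparison, with 200 genes changed by a log2 fold change of 1. At a dispersion of 0.02 (18324 genes) limma recovered 197 of the 200, and at 0.1 (18310 genes) it recovered 40. These dispersions were set and not estimated, and far fewer genes changed than the 68.8% called in the data. Permutation tests were run in SciPy 1.17.1 under Python 3.11.15.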

Additional observations from a re-analysis of the deposited data

Results flagged for a closer look

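Of 179 sets of values checked, 13 held a sample whose gap to the nearest of the others was large for its group, and chance flags about 1 in 20 sets. Among the 10 endothelial genes this was Kdr alone, at 840 normalized counts in replicate 2 after culture against 530 to 566 in the other 3 samples.

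The same replicate stood apart in 5 other genes. Calcrl stood at 1052 (others 748 to 780), Pf4 at 1113 (355 to 426), Abcc9, a pericyte channel gene, at 15.2 (7.95 to 9.12), Flt4 at 103 (145 to 153), and Gm37587 at 4.55 where the others were at 0. In other samples after culture, Gpihbp1 stood at 10.6 in replicate 4 (others 1.77 to 2.73) and Clec1b, a platelet receptor gene, at 379 in replicate 3 (265 to 284).

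Before culture, Cd68 was low in replicate 4 at 6638 (others 9838 to 10554), as was Batf3 at 347 (521 to 590), and Mmrn1 was high there at 77.0 (40.0 to 47.0). Icam1 was low in replicate 1 at 6637 (7853 to 8141), and Lyve1 was high in replicate 3 at 1748 (1504 to 1546).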

How the results depend on the processing

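All 10 endothelial genes kept their direction and stayed past the threshold under all 20 alternatives (200 of 200 values), with the log2 fold change of Eng from -1.56 to -1.43. Of 1676 values of named genes, 1661 kept their call, 15 (of Nrp1, Dkk2 and Zbtb46) lost it and 0 reversed.

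Pair ratios had fewer samples, and so a larger smallest exact p, when a sample was left out. Pecam1 to Cdh5 then ranged from 1.59 to 1.82, Tie1 to Tek from -1.04 to -0.81, Vwf to Cdh5 from 0.67 to 1.06 and Kdr to Flt1 from 0.46 to 0.88. Samples with the same title number had correlated deviations of 0.081, 0.080, -0.213 and -0.040, and those with the same library number of 0.081, 0.247, 0.349 and 0.045. Not every pair exceeded 0.1 in either numbering, so the samples were treated as sharing only a number. As a hint from the data, each of the 4 samples after culture correlated best with its own library number. With sign flips over the 4 title pairs as a replicate block, Pecam1 to Cdh5 was 1.75 and Tie1 to Tek -0.94. Pairs by library number were not used for these ratios. That exact test cannot go below p = 0.125, so it could not pass the threshold.

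A replicate block by title number gave 5776 higher and 5880 lower genes, and one by library number 6414 and 6451, against 6225 and 6299 without a block. All 10 endothelial genes stayed lower in both. Among list counts of higher genes, a minimum mean of 50 gave 1 for Weibel-Palade genes and 0 for arterial genes, no filter gave 0 for arterial genes, and leaving out single samples gave 0 to 1. Lymphatic genes called lower were 2 at a minimum mean of 50. Pericyte genes called higher were 1 under quantile scaling, DESeq2 and a replicate block by library number, and 0 to 1 on leaving out samples. Quantile scaling gave 2 higher epithelial genes. Higher monocyte genes were 6 under the block by library number and 3 to 5 on leaving out samples (5 without replicate 3 after culture). Neither depth nor these settings bound the 10 calls, whereas several list genes reached a few reads after culture, among them Gpihbp1, Mmrn1, Gja4 and Slc6a2.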
